A study of Homo sapiens with 6 samples.

Results

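The AP-1 transcription factor genes analysed here were FOS, FOSB, FOSL1, FOSL2, JUN, JUNB, JUND, ATF3, MAFF and MAFK, 10 of the 20163 protein-coding genes annotated on hg19. RNA polymerase II (Pol II) peaks were assigned to a gene when they overlapped its annotated body or the 5 kb on either side. The genes were listed by name, with no threshold on their Pol II signal. Their windows held 52 of 31710 peaks in the control library, 46 of 29201 in the ME2 knockdown library and 37 of 28968 in the library with added α-ketoglutarate.

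Pol II ChIP-seq was performed in SK-Hep1, an established human line derived from a liver adenocarcinoma, grown in DMEM with fetal bovine serum. The control cells were labelled nc (here siCtrl). The second condition was labelled sime2, an siRNA against ME2 (mitochondrial NAD-dependent malic enzyme, which converts malate to pyruvate), here siME2. The third combined the ME2 siRNA with αKG (α-ketoglutarate), a tricarboxylic acid cycle metabolite, here siME2+αKG. Dose, duration and siRNA sequence were not given in the sources used here, and ME2 depletion cannot be checked from Pol II peaks. The 6 samples were 1 ChIP and 1 input per condition, so no difference below was tested between conditions and each ratio compares 2 libraries. The siCtrl and siME2 sample titles carried the number 2 and the siME2+αKG titles none. Whether the conditions were run together was not stated.

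AP-1 is a dimer of basic leucine zipper proteins. JUN proteins pair with one another or with FOS proteins, whereas FOS proteins need a partner to bind DNA, and the dimers recognise the sequence TGANTCA. FOS, FOSB, JUN, JUNB and ATF3 are immediate-early genes, transcribed within minutes of serum, growth factor or stress signals through MAP kinases and serum response factor. MAFF and MAFK are small MAF proteins that lack a transactivation domain and pair with cap'n'collar proteins such as NFE2L2 (NRF2). Pol II commonly pauses just downstream of the start sites of such genes.

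Filtered tags numbered 13006504 for siCtrl, 10445326 for siME2 and 12955596 for siME2+αKG after removal of duplicates, and the estimated fragment lengths were 211, 201 and 221 bp. A peak's height is the number of fragments over its summit, and the lowest summit listed had 7 to 8 fragments. The normalised height is that number per 1000000 filtered ChIP tags. Of the marker genes, 0 of 8 for hepatocytes had a peak within 1 kb of a start site in any library, against 6 to 7 of 8 endothelial and mesenchymal markers and 1 of 6 leukocyte markers (CD68). The 95% intervals below are exact and cover counting error only, since no molecular identifiers were stated and the spread between cultures was not measured.

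The promoter sequences of the 6 immediate-early and JUN-family genes are shown because their core elements lie just upstream of the Pol II summits described next. Each runs 5′ to 3′ on the gene's own strand from base -250 to base -4 relative to the canonical start, on hg19, and capitals mark matches to the motifs given after them. They lie at chr14:75745281-75745527 (plus strand), chr19:45971004-45971250 (plus), chr1:59249723-59249969 (minus), chr19:12902050-12902296 (plus), chr19:18392436-18392682 (minus) and chr1:212781853-212782099 (plus).
FOS: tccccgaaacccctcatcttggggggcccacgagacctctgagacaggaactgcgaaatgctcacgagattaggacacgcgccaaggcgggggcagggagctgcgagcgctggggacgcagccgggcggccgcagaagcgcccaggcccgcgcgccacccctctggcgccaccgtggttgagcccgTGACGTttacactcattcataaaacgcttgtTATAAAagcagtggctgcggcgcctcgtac
FOSB: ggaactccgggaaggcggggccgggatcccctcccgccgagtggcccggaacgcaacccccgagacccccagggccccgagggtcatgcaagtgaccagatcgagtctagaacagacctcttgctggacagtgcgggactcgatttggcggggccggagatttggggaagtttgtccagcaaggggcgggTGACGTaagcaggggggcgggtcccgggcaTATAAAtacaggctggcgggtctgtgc
JUN: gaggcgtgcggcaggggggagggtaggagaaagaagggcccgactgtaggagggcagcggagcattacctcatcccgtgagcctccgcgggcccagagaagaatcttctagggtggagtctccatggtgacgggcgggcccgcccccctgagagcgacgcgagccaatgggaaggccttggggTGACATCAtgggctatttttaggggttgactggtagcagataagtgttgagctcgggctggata
JUNB: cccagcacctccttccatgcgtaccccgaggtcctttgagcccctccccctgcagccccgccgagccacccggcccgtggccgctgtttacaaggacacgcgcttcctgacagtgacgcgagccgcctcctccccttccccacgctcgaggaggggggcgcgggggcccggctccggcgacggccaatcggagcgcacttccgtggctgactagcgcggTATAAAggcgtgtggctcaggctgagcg
JUND: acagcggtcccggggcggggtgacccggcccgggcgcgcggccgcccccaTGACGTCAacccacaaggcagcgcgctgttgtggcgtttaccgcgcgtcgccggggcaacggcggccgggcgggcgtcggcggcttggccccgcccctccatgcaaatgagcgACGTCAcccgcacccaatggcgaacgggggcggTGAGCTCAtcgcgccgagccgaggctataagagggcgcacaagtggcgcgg
ATF3: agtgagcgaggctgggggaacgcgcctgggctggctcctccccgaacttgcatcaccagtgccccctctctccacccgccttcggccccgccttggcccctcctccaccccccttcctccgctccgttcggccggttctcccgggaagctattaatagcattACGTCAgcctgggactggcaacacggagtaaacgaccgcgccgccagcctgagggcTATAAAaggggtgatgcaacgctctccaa

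In all, 6 motifs were searched on both strands in the 250 bases upstream of each member and of 12443 promoters that held a Pol II summit in siCtrl. A TATA box (TATAAA) was found in 5 of 10 members and in 4.71% of all these promoters. Counted from the canonical start, it began at base -33 in FOS, -30 in FOSB, -31 in JUNB and -32 in ATF3, whereas the MAFK match lay on the minus strand at -248 to -243. The cyclic AMP response element TGACGTCA was found in JUND (-200 to -193) and MAFF (-54 to -47), and in 3.13% of all promoters. The shorter form TGACGT was found in 7 of 10 members, FOS, FOSB, FOSL1, FOSL2, JUND, ATF3 and MAFF, and in 10.7% of all promoters. The looser form TGANNTCA was found in JUN (as TGACATCA, -67 to -60), JUND and MAFF, and in 6.93% of all promoters. These 2 motifs overlap TGACGTCA and were added after the promoter sequences had been read. The AP-1 site TGANTCA was in 0 of 10 windows (3.11% of all promoters) and the CArG box bound by serum response factor in 0 of 10 (0.940%). A match is a run of letters and not evidence of binding, and no match covers only this window.

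Most AP-1 genes stood among the taller Pol II promoters of these cells. In siCtrl, 7 of the 10 were taller than 80% of the 12499 promoters with a summit within 1 kb of a start site. FOSL1 had the tallest member summit with 126 fragments (normalised height 9.69), and 98.8% of promoters were lower. ATF3 followed with 121 fragments (9.30), above 98.4% of promoters. JUNB, FOSL2 and FOS came next at 8.15, 7.84 and 7.30. JUN and JUND were at 6.69 and 6.30, and MAFF was at 4.92. FOSB and MAFK were low: 17.1% and 8.46% of promoters were below them.

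**Figure D1:**
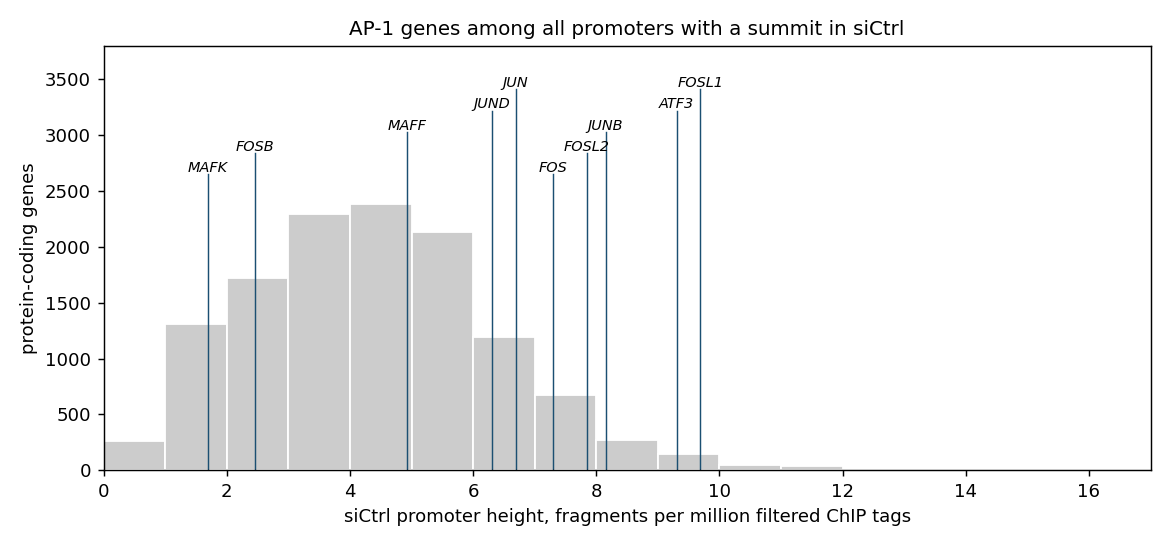
Distribution of siCtrl promoter summit heights (fragments per 1000000 filtered ChIP tags) over the 12499 protein-coding genes with a promoter summit in siCtrl, with the AP-1 genes marked. In siCtrl the members ranged from 1.69 at MAFK to 9.69 at FOSL1, 7 of them above 80% of all promoters.

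The order of the members was only partly resolved by counting. In siCtrl, 1 of 9 neighbouring pairs in the order differed beyond counting error, MAFF (64 fragments) over FOSB (32 fragments). In siME2 the same pair was the 1 of 9 that differed, at 44 and 22 fragments. In siME2+αKG, where FOSL1 had no summit of its own near its start, 3 of 8 pairs differed: JUN over MAFF, MAFF over FOSB, and FOSB over MAFK. The 7 members from FOSL1 down to JUND in siCtrl were therefore not separated from their neighbours.

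FOS (chr14:75745529-75748933, plus strand), the founding partner of JUN, gave 95 fragments at its start for siCtrl, 61 for siME2 and 83 with added αKG, normalised heights of 7.30, 5.84 and 6.41. The siME2 library was the lowest by this scaling. Divided by fragment length, siME2+αKG and siME2 were level, with a log2 ratio of -0.003. The log2 ratio of siME2 to siCtrl was -0.32 (95% counting interval -0.81 to 0.16), and that of siME2+αKG to siME2 was 0.13 (-0.36 to 0.63). The summits lay 97 to 152 bases downstream of the canonical start, in the first exon.

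FOSB (chr19:45971253-45978437, plus strand), a strongly serum-inducible FOS family protein that also pairs with JUN, gave 32, 22 and 34 fragments in the same order of libraries. The tallest summit lay in the intron 1159 bases from the start in siCtrl and 1049 in siME2, but in the first exon at 153 bases in siME2+αKG. At the first exon itself the heights were 22, 14 and 34 fragments (1.69, 1.34 and 2.62). The siME2+αKG library was highest there, with a log2 ratio of 0.97 to siME2 (0.03 to 1.98) and 0.63 to siCtrl (-0.18 to 1.48). The siME2+αKG peak was 1385 bp wide and ran over both positions, which were separate peaks in the other libraries.

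FOSL1 (FRA-1; chr11:65659520-65668044, minus strand), a FOS relative without a transactivation domain, had 126 fragments in siCtrl and 106 in siME2, normalised heights of 9.69 and 10.1. The log2 ratio was 0.07 (-0.32 to 0.45). In siME2+αKG the peak over FOSL1 was 15409 bp long and its single listed summit, 120 fragments (9.26), lay 9370 bases from the FOSL1 start, within 1 kb of the CCDC85B start. The height at the FOSL1 start in that library was not listed and can be at most 9.26. FOSL1 is therefore absent from ratios with siME2+αKG.

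FOSL2 (FRA-2; chr2:28615315-28640184, plus strand), the other FOS-related antigen, gave 102, 92 and 101 fragments, normalised heights of 7.84, 8.81 and 7.80. Its log2 ratios were 0.17 (-0.26 to 0.59) for siME2 to siCtrl and -0.18 (-0.60 to 0.25) for siME2+αKG to siME2. The 3 libraries overlapped within counting error.

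**Figure D2:**
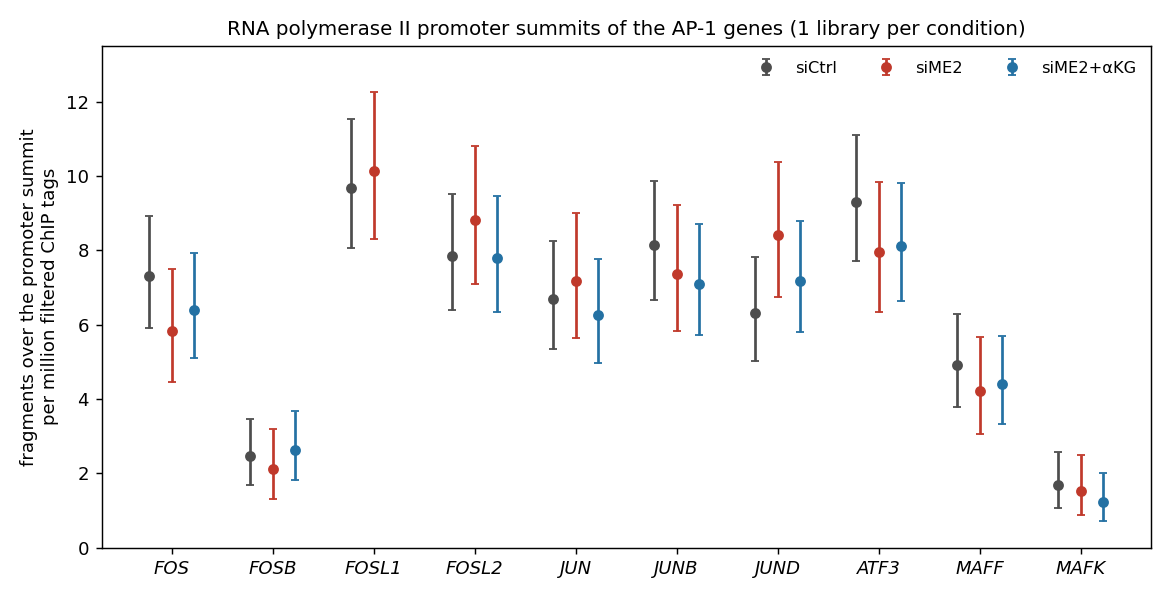
Normalised promoter heights of the AP-1 genes in the 3 libraries, with exact 95% Poisson counting intervals as bars. FOSL1 has no point in siME2+αKG, and FOSB and MAFK lie below 3 in every library.

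JUN (chr1:59242517-59249720, minus strand), the founding member of the family, had 87, 75 and 81 fragments, normalised heights of 6.69, 7.18 and 6.25. The siME2 to siCtrl log2 ratio was 0.10 (-0.36 to 0.56), and the siME2+αKG to siME2 ratio was -0.20 (-0.67 to 0.27). In siME2+αKG a second peak, with 65 fragments, had its summit at base -417 from the JUN start, near the starts of LINC01135 and ENSG00000290013. Those starts lay inside the JUN promoter peak in the other libraries, so Pol II there cannot be assigned to JUN alone.

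JUNB (chr19:12902300-12904129, plus strand), which can oppose JUN at some targets, had 106, 77 and 92 fragments, normalised heights of 8.15, 7.37 and 7.10. siCtrl was the highest. The log2 ratios were -0.14 (-0.59 to 0.29) for siME2 to siCtrl and -0.05 (-0.51 to 0.40) for siME2+αKG to siME2.

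JUND (chr19:18390504-18392432, minus strand), the most constitutively expressed JUN gene, had 82, 88 and 93 fragments, normalised heights of 6.30, 8.42 and 7.18. Its log2 ratio of siME2 to siCtrl was 0.42 (-0.03 to 0.87), the highest of the members, and 95.6% of promoters had a lower ratio. Scaled to the median promoter the interval left out 0, at 0.46 (0.01 to 0.91), and divided by fragment length likewise, at 0.49 (0.04 to 0.94). Both scalings raise the ratio of every promoter, and the share of all promoters whose interval then left out 0 was not computed. The siME2+αKG to siCtrl ratio was 0.19 (-0.26 to 0.63). MIR3188 starts inside this peak.

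ATF3 (chr1:212738676-212794119, plus strand), a stress-induced family member that can act as a repressor, had 121, 83 and 105 fragments, normalised heights of 9.30, 7.95 and 8.10. siCtrl was the highest. The ATF3 log2 ratio was -0.23 (-0.65 to 0.19) for siME2 to siCtrl and 0.03 (-0.40 to 0.46) for siME2+αKG to siME2. The summits lay 105, 191 and 147 bases from the canonical start, at the downstream promoter of the gene. At the upstream promoter, the nearest listed peak was in siCtrl, with 12 fragments at base -41687 and 1740 bases from a start site.

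MAFF, FOSB and MAFK were the 3 lowest members in each library. MAFF (chr22:38596774-38612514, plus strand) had 64, 44 and 57 fragments, normalised heights of 4.92, 4.21 and 4.40, with log2 ratios of -0.22 (-0.81 to 0.35) for siME2 to siCtrl and 0.06 (-0.53 to 0.66) for siME2+αKG to siME2. MAFK (chr7:1570338-1582679, plus strand) had 22, 16 and 16 fragments, normalised heights of 1.69, 1.53 and 1.23. Its summits lay at -99, 3 and 502 bases from the start, and its log2 ratio was -0.14 (-1.17 to 0.85) for siME2 to siCtrl, between summits 102 bp apart. The siME2+αKG to siME2 ratio, -0.31 (-1.41 to 0.78), compares summits 499 bp apart.

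By the tallest summit near its start, no AP-1 promoter differed by 1.5-fold between libraries, and no counting interval left out 0 without rescaling. For siME2 to siCtrl, 0 of 10 members were past 1.5-fold higher and 0 past 1.5-fold lower, against 1.49% and 3.17% of 12005 promoters. Of intervals, 0 of 10 lay above 0 and 0 below, against 0.625% and 1.56%. The median member ratio was -0.14, with 4 higher and 6 lower, beside -0.04 over all promoters. For siME2+αKG to siME2, 0 of 9 members were past 1.5-fold either way, against 1.41% higher and 4.43% lower of 11834 promoters, and 0 intervals left out 0, against 0.499% above and 2.7% below. The median was -0.05 with 4 higher and 5 lower, beside -0.08 over all promoters. Relative to the latter value it was 0.03, with 5 higher and 4 lower. For siME2+αKG to siCtrl, 0 of 9 were past 1.5-fold, against 0.739% higher and 4.42% lower of 11910 promoters, and 0 intervals left out 0, against 0.193% above and 3.09% below. The ratios ran from -0.45 (-1.48 to 0.54) at MAFK to 0.19 at JUND. The MAFK value compares summits 601 bp apart, and between the summits at 502 and 488 bases it was -0.08 (-1.16 to 0.99). The median was -0.16, with 2 higher and 7 lower, beside -0.13 over all promoters. Relative to that shift of all promoters, 4 were higher and 5 lower. These comparisons share libraries, so the same library's height enters 2 of them.

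At the lower fold threshold tried, 1 of 10 members was higher (JUND) and 1 lower (FOS) for siME2 to siCtrl, against 7.33% and 13.9% of all promoters. Between siME2+αKG and siME2 it was 0 of 9 either way, against 6.67% higher and 18% lower. Between siME2+αKG and siCtrl it was 0 higher and 1 lower (MAFK, at the distant summits), against 3.78% and 20.9%. Restricting summits to 500 bp of a start site placed FOSB past 1.5-fold higher in siME2+αKG, against siME2 (1.56% of 11330 promoters) and against siCtrl (0.798% of 11399).

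**Figure D3:**
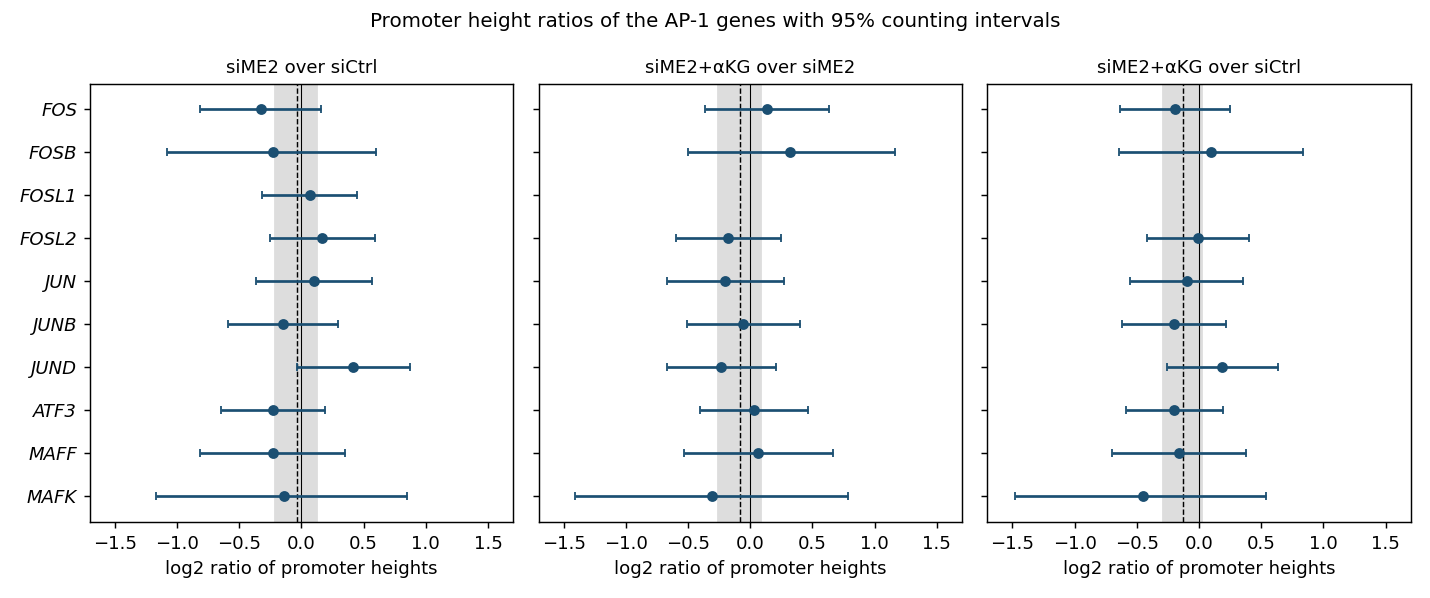
Log2 ratios of normalised promoter height for each AP-1 gene in the 3 comparisons, with exact 95% counting intervals. The dashed line is the median and the grey band the quartiles of all promoters. Every member interval spans 0.

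Summits placed within 250 bp of each other compare like positions over the whole windows. Several pairs can come from 1 gene, most often from FOSL2, and many are low summits in introns or downstream. The pairs are therefore not separate genes, and their counts do not describe the members as a set. For siME2 to siCtrl, 24 pairs were found, 7 higher and 17 lower, with a median of -0.18, beside 53.6% lower and a median of -0.02 over all 17597 matched pairs of the lists. Of the intervals, 1 lay below 0 and 0 above, against 1.19% and 0.517% of those pairs. That pair was the summit downstream of MAFF, with 12 fragments in siME2 and 32 in siCtrl, log2 ratio -1.10 (-2.19 to -0.10), where 1 siCtrl peak of 2482 bp faced several shorter siME2 peaks. For siME2+αKG to siME2, 17 pairs were found, 11 higher and 6 lower, with a median of 0.06, beside 41.5% higher and a median of -0.06 over all 17313. Of the intervals, 1 lay above 0, the FOSB first exon given above, and 0 below, against 0.422% and 1.97% of all pairs. For siME2+αKG to siCtrl, 18 pairs were found, 6 higher and 12 lower, with a median of -0.10, beside 60.7% lower and a median of -0.09 over all 17449. Here 0 intervals left out 0, against 0.183% above and 2.32% below. Among them, a summit upstream of FOS had 20 fragments in siME2+αKG and 9 in siCtrl, log2 ratio 1.16 (-0.04 to 2.48), and siME2 listed no peak there.

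The extent of Pol II over the gene body differed between members. Peaks covered all of FOSL1, JUNB and JUND in each library. They covered 29.3%, 15.1% and 37.6% of FOS, and 58.1%, 60.7% and 63.0% of JUN, in the order siCtrl, siME2 and siME2+αKG. These shares are of the span of all annotated transcripts, 7204 bp for JUN. The canonical JUN exon ends 3.256 kb from the start. In siME2 and siME2+αKG the peak at the JUN start covered that exon end to end, and in siCtrl a short gap lay within it. FOSL2 had 16, 17 and 15 peaks, most of them of low height in its introns and downstream, and 62.6%, 52.7% and 68.0% of it was covered. ATF3, 55444 bp long over all transcripts, was covered over 8.26%, 6.08% and 5.52%. Its canonical transcript ends 12.014 kb from its start, and the share of that transcript alone was not computed. In each library the longest peak was the one over FOSL1, of 13041, 13272 and 15409 bp, which also spanned the starts of CCDC85B and FIBP.

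**Figure D4:**
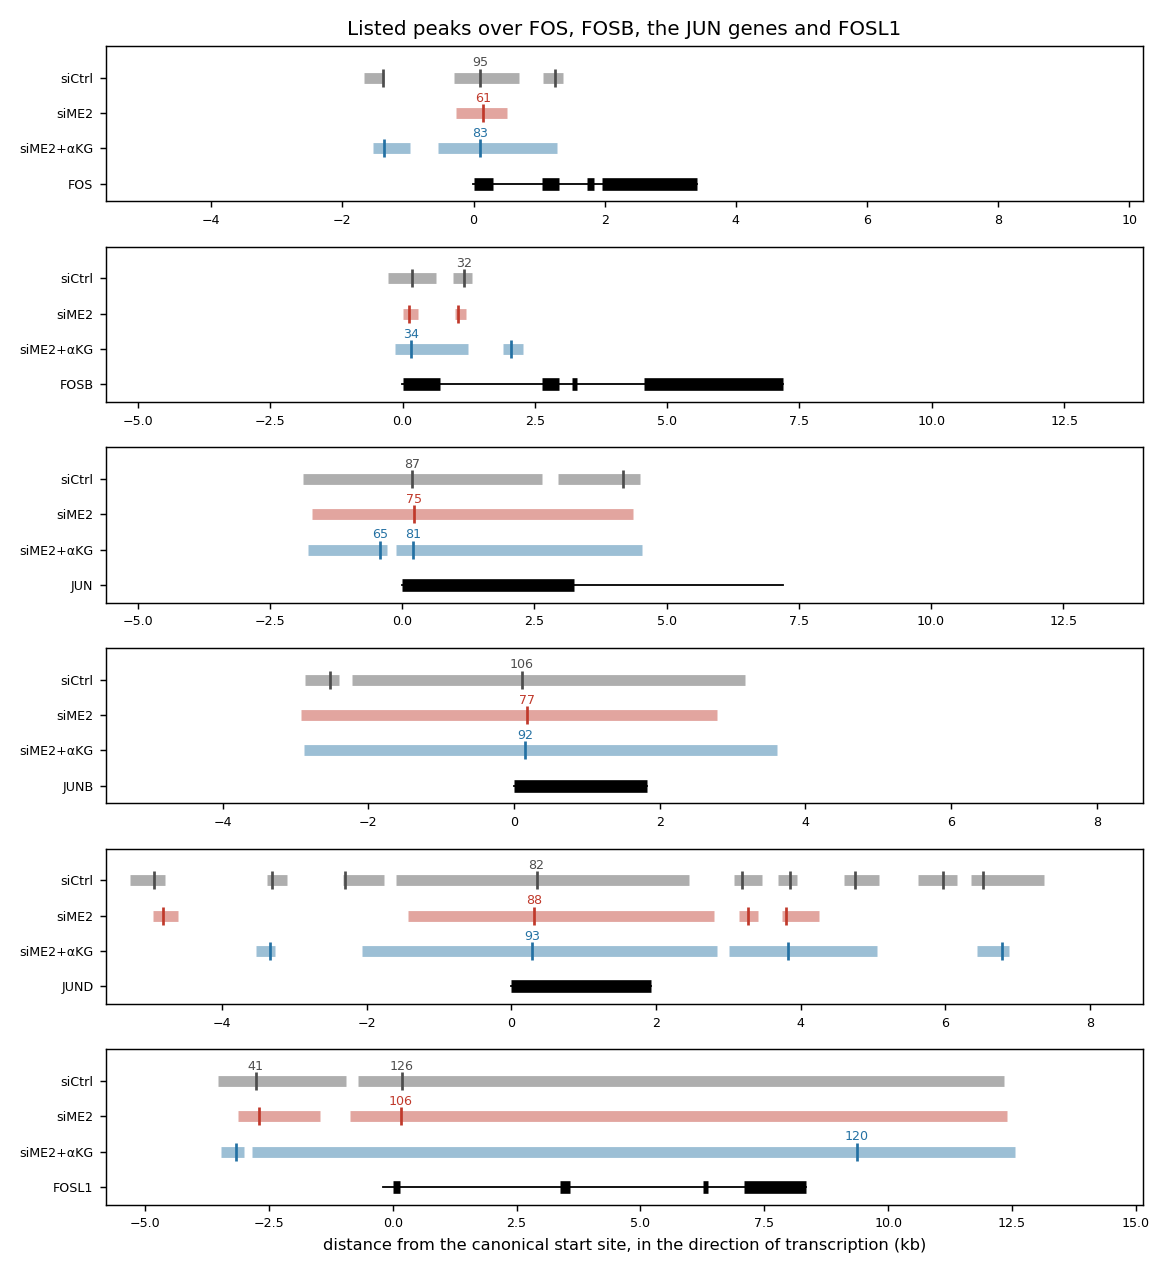
Pol II peaks over the shorter AP-1 genes in the 3 libraries, by distance from the canonical start in the direction of transcription. Thick bars are peaks, ticks are summits, numbers are fragments at summits of at least 30, and black boxes are exons of the canonical transcript. JUNB and JUND are covered end to end.

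**Figure D5:**
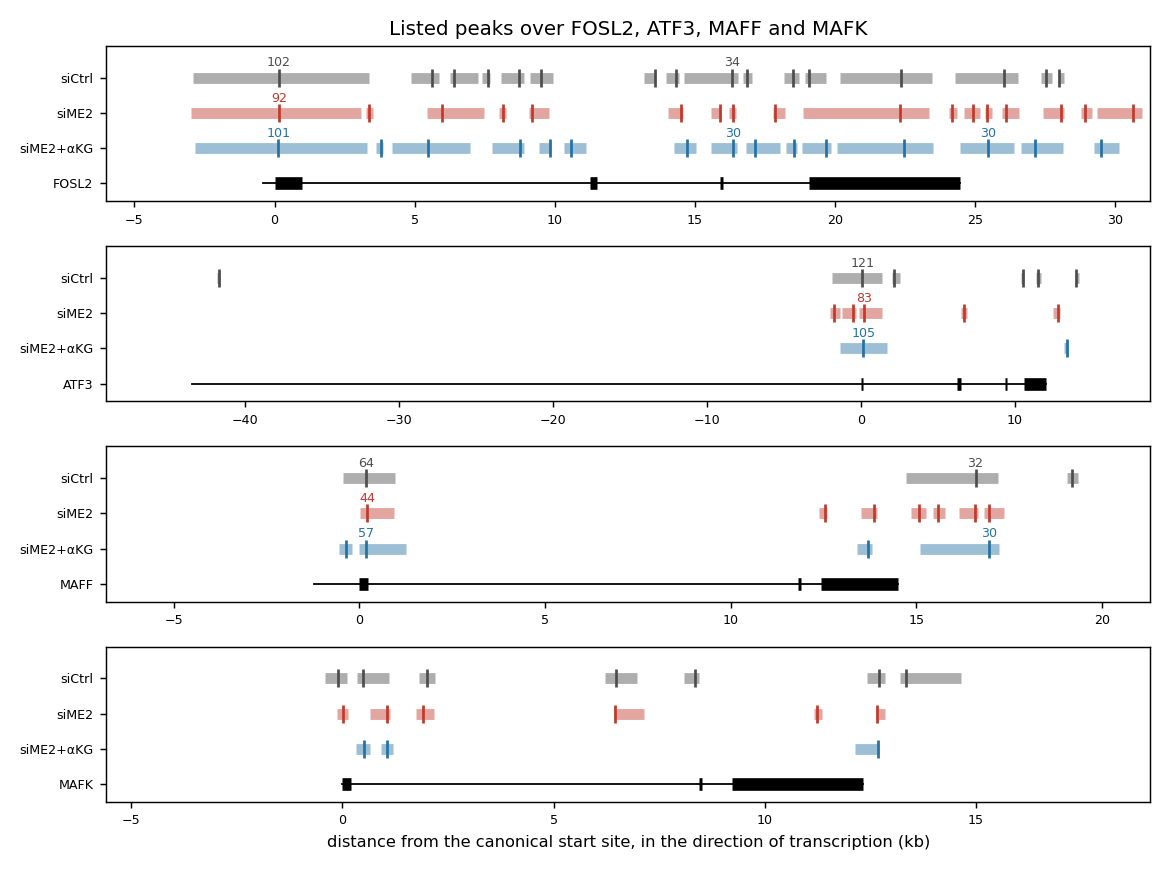
The same for the longer AP-1 genes. FOSL2 holds 15 to 17 peaks a library, and the tallest ATF3 peak lies at the downstream start with 121, 83 and 105 fragments.

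Over the members, siME2+αKG listed fewer peaks of greater median length. Its whole list also held the fewest peaks, but the members made up 0.128% of it, against 0.164% in siCtrl and 0.158% in siME2. The median length was 542.5 bp for siCtrl, 489 bp for siME2 and 1060 bp with added αKG, beside 602, 554 and 611 bp over the whole lists. The covered length was 72097, 61154 and 72037 bp of 238475 bp. The mean normalised height over these peaks was 2.36, 2.44 and 2.77, beside 2.49, 2.65 and 2.51 over the whole lists. Fragment length was also longest in siME2+αKG, and its part in peak length was not tested. Peaks over the members were shared between lists at rates near those of the whole lists. siME2 shared 40 of its 46 with siCtrl (87.0%, whole list 82.9%), and siCtrl shared 35 of its 52 with siME2 (67.3%, whole list 68.9%). siME2+αKG shared 32 of its 37 with siCtrl (86.5%, whole list 81.1%), and siCtrl shared 37 of its 52 with siME2+αKG (71.2%, whole list 70.9%). Between the ME2 siRNA libraries, siME2+αKG shared 28 of 37 (75.7%, whole list 74.8%) and siME2 35 of 46 (76.1%, whole list 78.7%).

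Other genes of the pathway were read from 4 lists by the same measure, with log2 ratios for siME2 to siCtrl beside the median of -0.04 over all promoters. Over all promoters, 43.5% were higher, and intervals lay above 0 for 0.625% and below 0 for 1.56%. Of 15 other AP-1 and MAF family genes, 10 had a summit in both libraries, 1 higher and 9 lower, with a median of -0.11. The 9 include NFE2L2, at -0.16 with summits 127988 bp apart. JDP2, a repressive JUN partner whose summits lay 679 bp apart, was at -0.48 (-1.38 to 0.38) and NFE2L1, a cap'n'collar factor, at -0.45 (-0.89 to -0.03), the only interval of this list below 0. BACH1, a repressor that pairs with small MAFs, was at -0.02, and MAFG, the third small MAF, at 0.07. All 19 upstream kinases and serum response factors had summits in both, 6 higher and 13 lower, with a median of -0.08. RPS6KA5 (MSK1), a kinase of histone H3 at immediate-early genes, was the 1 with an interval below 0, at -0.62 (-1.24 to -0.03). RPS6KA3 was at -0.42, ELK3, with summits 458 bp apart, at 0.24 and MAP2K7, which activates JNK, at 0.26.

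Of 8 MAP kinase phosphatases, which switch the upstream kinases off, 4 had a summit in both libraries, 1 higher and 3 lower, with a median of -0.31 and 0 intervals away from 0. DUSP1 had 149 fragments in siCtrl and 92 in siME2, log2 ratio -0.38 (-0.77 to 0.01). DUSP5 was at -0.51, DUSP4 at -0.25 and DUSP16 at 0.29 with summits 858 bp apart. Of 16 textbook AP-1 target genes, 11 had a summit in both, 4 higher and 7 lower, with a median of -0.15. TGFB1 was the 1 with an interval below 0, at -0.79 (-1.52 to -0.10), with 26 fragments in siME2 and 56 in siCtrl. For siME2 to siCtrl, 1.56% of all promoters had an interval below 0. CD44 was at -0.26, PLAUR, the urokinase receptor, at 0.17 and HMOX1, haem oxygenase, at 0.23. MMP1, MMP3, MMP9 and CXCL8 had no promoter peak in any library. For siME2+αKG to siME2 the medians of the 4 lists, in the same order, were 0.09, -0.02, -0.05 and -0.08, beside -0.08 over all promoters. The numbers higher were 8 of 11, 9 of 19, 2 of 4 and 3 of 11, beside 36.9% of all promoters. In the first list the highest ratio, 0.29 at NFE2L2, compares summits 128001 bp apart. Several others counted as higher there also compare summits more than 250 bp apart, so that count does not compare like positions. In the comparisons with siME2+αKG, 2 genes of the 4 lists had intervals below 0 and 0 above. They were TIMP1 against siME2, at -0.69 (-1.35 to -0.04), and DUSP10 against siCtrl, at -0.77 (-1.46 to -0.10) with summits 838 bp apart, both named after their values were seen. Of all promoters, 2.7% had an interval below 0 against siME2 and 3.09% against siCtrl.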

How the data were processed

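Pol II ChIP-seq reads were aligned with Bowtie2 2.3.5.1 to hg19 and peaks called with MACS2 2.2.6, per the submitters' processing notes; the file headers name MACS 2.2.7.1. Per the file headers, each ChIP library was called against its own input at p 1e-05, keeping 1 tag per position. The deposited signal is the pileup of fragments at each summit; in siME2+αKG it had been multiplied by 0.900, which was undone, giving whole fragments within 0.00553. The deposited fold is pileup over local background, and the deposited −log10 p and q values are the caller's; fold was used only to describe peaks.

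From these, heights were divided by filtered ChIP tags. A promoter's height is the tallest summit within 1 kb of any start site of a protein-coding gene (GENCODE release 44 on GRCh37, whose coordinates equal hg19). Ratios carry 95% exact conditional binomial intervals. With 1 library per condition there was no test. Computations used Python 3.11.15, numpy 2.4.6, pandas 2.3.3, scipy 1.17.1 and matplotlib 3.10.9. Only the interval calculation was tested on simulated data, with Poisson counts. All 10 members were named. Of each further list, the 2 highest and 2 lowest siME2 to siCtrl ratios were named. NFE2L2 was added for the distance between its summits. Members and lists were chosen with earlier results of these data known. Alternatives tried were other scalings, background subtraction, promoter reach, flank, fold threshold and summit matching.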

Additional observations from a re-analysis of the deposited data

How the results depend on the processing

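No paired analysis was possible because each condition had 1 ChIP library; for the same reason no replicate could be left out. Of the 28 member ratios, all stayed inside their counting intervals under rescaling to the median promoter, division by fragment length and subtraction of local background. The largest shifts, 0.129, 0.137 and 0.057, were smaller than the reach of every interval, so no ratio could have left it. The 27 and 26 ratios available with matched summits and a 500 bp reach also stayed inside. Most of them used the same summits as before and so could not move. Only FOSB ratios changed in value, and with matched summits also the MAFK ratio of siME2+αKG to siCtrl. For JUND, the siME2 to siCtrl interval left out 0 under rescaling to the median promoter and under division by fragment length. Signs changed for 3 ratios under rescaling to the median promoter, 3 under division by fragment length and 1 under background subtraction, at genes near 0. Divided by fragment length, the siME2+αKG to siME2 ratios of FOS, ATF3 and MAFF turned negative, at -0.003, -0.108 and -0.074. The member median of that comparison, -0.05, became 0.03 relative to the median promoter and -0.19 divided by fragment length. The medians of the other comparisons stayed negative at each setting. At the lower fold threshold tried, 1 member was higher and 1 lower for siME2 to siCtrl (7.33% and 13.9% of all promoters), and 1 lower for siME2+αKG to siCtrl (20.9%), where 1.5-fold gave 0. The last, MAFK, was at -0.08 with matched summits. With summits matched within 250 bp, and likewise within 500 bp of a start site, 1 member, FOSB, was past 1.5-fold higher in siME2+αKG against siME2 (0.97) and 1, again FOSB, against siCtrl (0.63). Within 500 bp of a start site, 1.56% and 0.798% of all promoters were past it. The share for matched summits was not computed. Counting peaks over the gene alone gave 34 in siCtrl and 30 in siME2, in place of 52 and 46. Requiring 50% of each peak to overlap left 18 of the siME2+αKG peaks shared with siME2, in place of 28. The whole-list share under that rule was not computed, so the loss cannot be called particular to these genes. The matched-summit setting, the count at 500 bp and the setting without FOSB, FOSL1 and MAFK were chosen after seeing the data. Depth limits what can be seen: at MAFK, with 16 to 22 fragments, the interval of siME2 to siCtrl spans -1.17 to 0.85.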

Other observations

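The authors' fold over local background and the height described the same promoters differently. At JUN the local background of siCtrl was 1.49 fragments, that of siME2 3.19 and that of siME2+αKG 4.45, and the deposited fold was 35.4, 18.1 and 14.8, while the heights were 6.69, 7.18 and 6.25. At ATF3 in siCtrl the background was 1.13 fragments and the deposited fold, 57.4, was the 24th highest of that library's list. At FOSL2 the siME2 fold was 33.6 with a background of 1.77 fragments, against 19.4 with 4.30 in siCtrl. Each of these backgrounds is only a few fragments, and no counting interval was computed for the background or the fold.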
